A study of Mus musculus with 3 samples.

Results

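Transcript levels of 10 stress and stimulus responsive genes were followed through mouse gastrulation, 8 of them immediate early genes (Fos, Fosb, Jun, Junb, Egr1, Ier2, Atf3 and Dusp1) and 2 of them inducible heat shock genes (Hspa1a and Hspa1b). They were taken by symbol from the 32285 genes of the files, and each symbol matched 1 gene. Droplet RNA libraries of single cells came from embryos of the ARC mouse strain at embryonic day 7.0 (E7.0) and E7.25, and from the posterior region of embryos at E7.5. All embryos were labelled normal, with no treatment given, and all cells were dissociated with trypsin and passed through a 40 µm strainer. Each stage is 1 library, so stage, library and time of handling cannot be told apart, and at E7.5 neither can the dissected region. How many embryos were pooled, and which of the 2 possible kit versions each library used, is not given in the sources used here.

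Cells with at least 1000 detected genes and at most 10% mitochondrial counts were kept, which left 7941 cells at E7.0, 5194 at E7.25 and, in posterior E7.5 embryos, 8438. They held 108350108, 47672673 and 87940979 unique molecular identifiers (UMIs, each 1 captured transcript), with a median of 11295, 8298 and 9254.5 per cell. The median cell had 2.26%, 2.39% and 3.44% mitochondrial UMIs. The 3 pairs of libraries shared 8 to 22 barcodes. E7.25 stood apart in the clustering, from which the members had been left out: its epiblast-like cells lay almost all in a cluster to which it gave 1448 of 1466 cells, and most of its streak-like cells in one to which it gave 466 of 474. Levels are given as CPM (UMIs of a gene per 1000000 UMIs) with exact 95% intervals, which cover counting error only. With 1 library per stage no test between stages was possible, and no spread between embryos is known.

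Immediate early genes are transcribed within minutes of a signal, without new protein synthesis, from promoters that are kept ready. Growth factors, matrix contact, mechanical strain and the dissociation of a tissue all switch them on, and several of their products are transcription factors that shut off again quickly. Hspa1a and Hspa1b encode inducible HSP70 chaperones, which heat shock factor switches on when unfolded proteins gather. In the gastrulating embryo, FGF signalling through ERK is a known inducer of some of these genes, so their transcripts can report a signal in the embryo or one received on the way to the droplet.

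The promoter windows of the members hold different response elements, and 5 windows are shown as examples of each kind. RefSeq windows on GRCm38.p6, from 250 bases before to 50 bases after the annotated start, were used for 8 of the 10 members, without Egr1 and Ier2. Those below are Fos (chr12:85473640-85473939, plus strand), Fosb (chr7:19309996-19310295, minus strand), Jun (chr4:95052173-95052472, minus strand), Dusp1 (chr17:26508423-26508722, minus strand) and Hspa1a (chr17:34972107-34972406, minus strand). Capitals mark TGACG, the core of the cAMP response element, with TATAAA in Fos, the variant TGACATCA in Jun, the whole element TGACGTCA in Dusp1 and the heat shock pair GAANNTTC in Hspa1a.
Fos: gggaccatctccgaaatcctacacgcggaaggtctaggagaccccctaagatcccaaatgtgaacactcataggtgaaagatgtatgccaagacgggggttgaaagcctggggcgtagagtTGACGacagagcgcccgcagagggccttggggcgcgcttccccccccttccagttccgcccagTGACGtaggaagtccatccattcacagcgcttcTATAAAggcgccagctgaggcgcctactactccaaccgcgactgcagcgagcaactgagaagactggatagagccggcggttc
Fosb: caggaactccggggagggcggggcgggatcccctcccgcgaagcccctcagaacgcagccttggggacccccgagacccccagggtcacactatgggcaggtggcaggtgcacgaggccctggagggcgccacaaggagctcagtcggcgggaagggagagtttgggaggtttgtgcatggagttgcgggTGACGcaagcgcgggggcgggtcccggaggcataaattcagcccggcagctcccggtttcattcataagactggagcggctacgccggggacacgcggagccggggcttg
Jun: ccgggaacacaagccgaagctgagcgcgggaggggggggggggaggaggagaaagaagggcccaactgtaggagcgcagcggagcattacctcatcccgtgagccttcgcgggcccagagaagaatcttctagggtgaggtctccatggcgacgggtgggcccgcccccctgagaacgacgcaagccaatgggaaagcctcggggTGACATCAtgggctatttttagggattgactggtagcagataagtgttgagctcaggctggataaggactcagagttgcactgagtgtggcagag
Dusp1: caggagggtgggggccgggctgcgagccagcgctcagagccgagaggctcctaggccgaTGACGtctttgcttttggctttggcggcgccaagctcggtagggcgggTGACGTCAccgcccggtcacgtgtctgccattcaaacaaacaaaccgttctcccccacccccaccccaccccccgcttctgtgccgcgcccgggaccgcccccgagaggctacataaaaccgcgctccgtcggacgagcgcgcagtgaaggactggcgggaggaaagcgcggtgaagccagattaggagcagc
Hspa1a: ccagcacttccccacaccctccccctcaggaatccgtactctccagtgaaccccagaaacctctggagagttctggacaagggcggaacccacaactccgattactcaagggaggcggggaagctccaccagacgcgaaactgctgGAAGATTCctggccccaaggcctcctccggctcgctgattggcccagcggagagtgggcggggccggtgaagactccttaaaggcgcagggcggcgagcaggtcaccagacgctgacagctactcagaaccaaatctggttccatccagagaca
TGACG, read on either strand, stood in the windows of Fos, Fosb, Junb, Atf3 and Dusp1, against 20.8% of the 32851 windows in the table. TGACGTCA, which contains it, stood in that of Dusp1 and in 1.79% of all windows. TGACATCA, by which Jun protein is known to act on its own gene, stood in that of Jun and in 3.62% of all. GAANNTTC stood in those of Hspa1a, Hspa1b and Jun and in 7.86% of all. TATAAA was found in those of Fos and Junb and in 13.6% of all. The CArG box of serum response factor was found in none of the 8 windows and in 1.63% of all. Sequence more than 250 bases before the start, and the promoters of Egr1 and Ier2, were not searched, so boxes there would be missed. These matches describe letters, not bound sites. The windows of Hspa1a and Hspa1b differed at 4 of 300 positions. Their longest transcripts in GENCODE M21 were 84.3% identical, and the last 300 bases, where a 3' library reads, 50.1% identical. How reads that fit both near copies were counted is not stated, so the split between them is given as uncertain. In the same annotation Junb overlaps Prdx2, Jun overlaps Junos, Atf3 overlaps Gm24748, Hspa1a overlaps Gm20481 and Dusp1 overlaps Ergic1 and Gm8225, all on the opposite strand. Dusp1 also overlaps AC122252.1 and AC122252.4 on the same strand. The sources used here do not say whether counting used strand.

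Fosb, of the FOS family, held the widest difference between libraries of all 10 members. Fos, which pairs with JUN proteins to form the AP-1 factor, stood at 6.17 CPM at E7.0, 33.5 CPM at E7.25 and, in posterior E7.5 cells, 18.6 CPM, from 669, 1597 and 1635 UMIs. Fosb, a close relative with the same partners, stood at 2.45, 26.1 and 9.09 CPM at E7.0, E7.25 and posterior E7.5. Both genes were therefore highest at E7.25, lowest at E7.0 and in between at E7.5 posterior, with no overlap of counting intervals. E7.25 over E7.0, Fosb was 10.7-fold higher (interval 9.34 to 12.2) and Fos 5.43-fold higher (4.95 to 5.95).

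The JUN genes were less uniform. Jun, the main partner of FOS, stood at 51.9 CPM at E7.0, 128 CPM at E7.25 and, in posterior E7.5 cells, 64.98 CPM. Its E7.25 level was 2.46-fold that at E7.0 (2.37 to 2.55). The E7.5 posterior level lay nearer to that at E7.0, at a log2 ratio of 0.32 over it, without overlap of counting intervals. Within the 7 classes of at least 100 cells in both, that ratio ran from -0.57 to 1.30. Junb, which can hold AP-1 activity in check, stood at 10.5, 17.1 and 7.99 CPM at E7.0, E7.25 and posterior E7.5. It stayed under 20 CPM in all 3 libraries, the level that a gene had to reach in 1 of the 2 libraries compared to be counted as measured.

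Egr1, a zinc finger factor on chromosome 18 that ERK signalling is known to induce, stood at 8.26 CPM at E7.0, 33.8 CPM at E7.25 and, in posterior E7.5 cells, 23.3 CPM. It was 4.09-fold higher at E7.25 than at E7.0 (3.77 to 4.45). Ier2, a small nuclear protein gene, went the other way: it stood at 71.8, 62.0 and 67.6 CPM, lowest at E7.25. Its ratio of E7.25 over E7.0 was 0.864 (0.828 to 0.901). It was the only member not highest at E7.25. In the GENCODE M21 annotation Egr1 lies at chr18:34859823-34864984 (plus strand) and Ier2 at chr8:84661331-84662852 (minus strand), while the sources used here do not name the build of the counts.

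Dusp1, a phosphatase that switches MAP kinases off, stood at 6.58, 10.3 and 9.57 CPM at E7.0, E7.25 and posterior E7.5. Atf3, a stress induced partner of JUN, was rare in every library, with 120, 79 and 82 UMIs and 1.11, 1.66 and 0.932 CPM. Hspa1a stood at 0.692 CPM at E7.0, 3.82 CPM at E7.25 and, in posterior E7.5 cells, 2.18 CPM, from 75, 182 and 192 UMIs. Hspa1b stood at 0.332, 1.28 and 0.728 CPM, from 36, 61 and 64 UMIs. Both heat shock genes thus had the same order of libraries as Fos. Their summed level was 4.98-fold higher at E7.25 than at E7.0 (3.96 to 6.29), but at levels of few UMIs per 1000 cells.

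**Figure D1:**
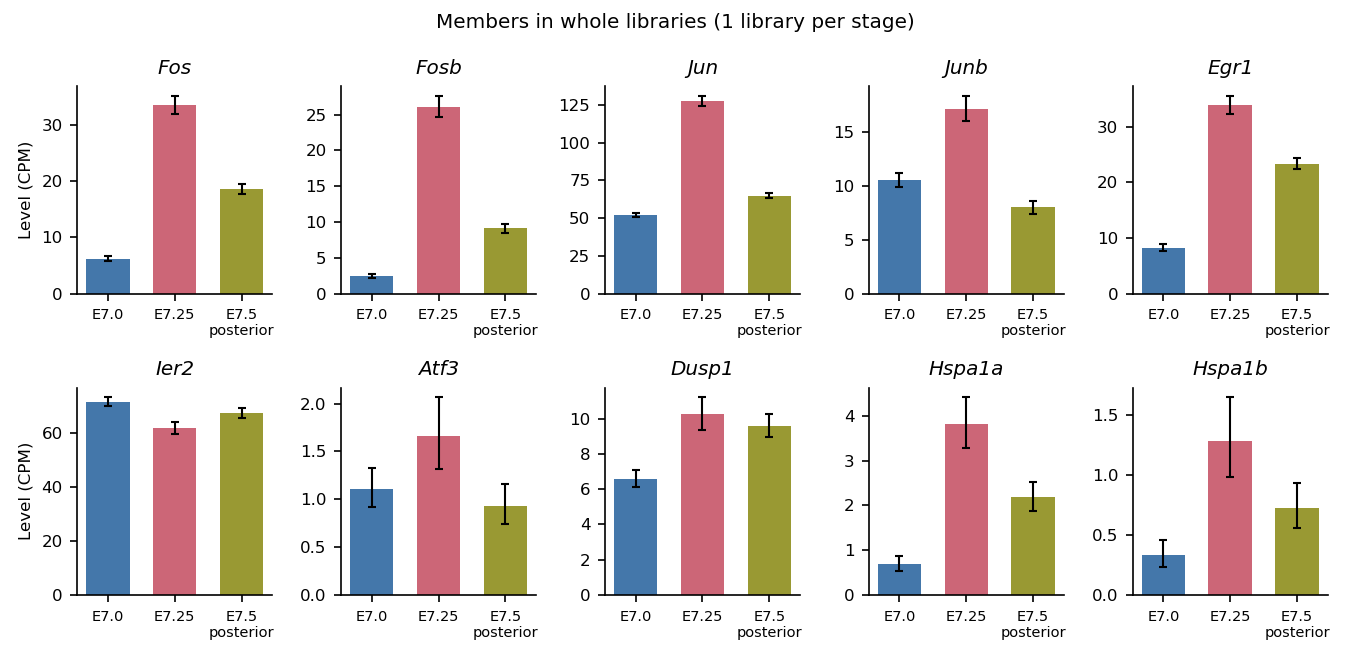
Level of each member in CPM (vertical axes, each from 0) in the whole libraries of E7.0, E7.25 and posterior E7.5. Bars are 1 library each, and error bars are exact 95% Poisson intervals of the counts; E7.25 is the highest bar for every gene other than Ier2.

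Of the 10 members, 5 were measured E7.25 over E7.0, and 4 of those 5 (Fosb, Fos, Egr1 and Jun) were at least 2-fold higher, against 2.78% of 5585 genes measured. Fos, Fosb and Egr1 reached 20 CPM at E7.25 alone, so they were admitted through the library where they are high, and nothing is read from their count against that share. Jun and Ier2 reached 20 CPM in both libraries, and Jun had the 61st highest ratio of the 5585 genes. With no minimum, 6 of the 10 members had ratios of at least 2-fold, the 4 named and both heat shock genes. On the log2 scale these ratios were 3.42, 2.44, 2.03 and 1.30, and Ier2 had -0.21, where the median gene had 0.12. The sum of the 8 immediate early genes was 312 CPM at E7.25, against 159 CPM at E7.0, a log2 ratio of 0.98 (0.94 to 1.01). Ier2 and Jun made up most of that sum at E7.0.

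**Figure D2:**
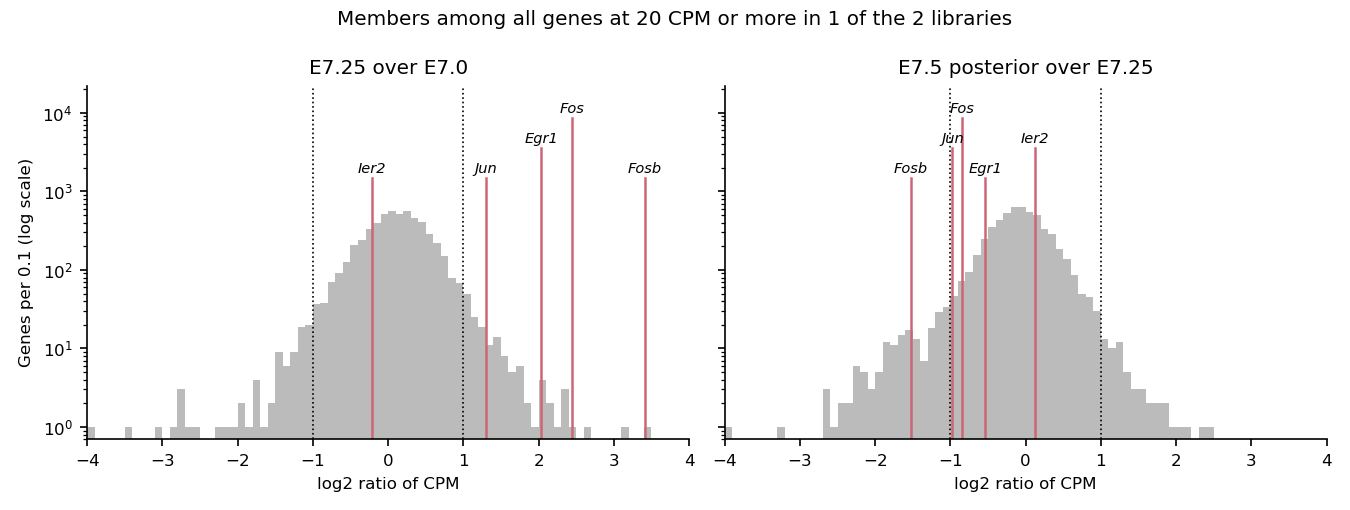
Number of genes (vertical log axis) by log2 ratio of CPM (horizontal axis) for E7.25 over E7.0, left, and E7.5 posterior over E7.25, right; red lines mark the 5 measured members and dotted lines 2-fold. At left Fosb, Fos, Egr1 and Jun lie beyond the right dotted line, and at right Fosb lies beyond the left one, with Jun at -0.98 just inside it.

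Long and short transcripts also differed between these libraries. Split into 5 equal groups by transcript length, genes had a median log2 ratio of E7.25 over E7.0 of -0.08 in the shortest and 0.24 in the longest group. Ier2 belonged to the second group, with a median of 0.05, Fos to the third, with 0.14, and Fosb, Jun and Egr1 to the fourth, with 0.21. The log2 ratios of Fosb, Fos, Egr1 and Jun were 3.42, 2.44, 2.03 and 1.30, and that of Ier2 was -0.21. The part of transcript length in them was not tested.

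Whether the higher level at E7.25 was held by some lineages or by all was read within classes of cells. Clusters were named from markers and close lineages joined, with the members and related genes left out of the clustering, and class names are likenesses. In 7 classes with at least 100 cells in both libraries, Fos, Fosb, Jun and Egr1 were higher at E7.25 than at E7.0 in each of the 7, with intervals above 0 every time. These were epiblast, streak and nascent mesoderm, paraxial and lateral mesoderm, extraembryonic mesoderm, definitive endoderm and gut, visceral endoderm and trophoblast-like cells. The same held in 9 of 9 classes when those of at least 50 cells were admitted, which added blood and endothelium-like and node and notochord-like cells. The higher level was thus found in embryonic and extraembryonic classes.

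With no minimum level, Fos and Fosb were at least 2-fold higher in 7 of 7 classes, Egr1 in 6 of 7 and Jun in 5 of 7, with Jun at 1.97-fold in the other 2. Of these genes, Jun alone reached 20 CPM in both libraries of every class. Fosb did so in none, so its presence among measured genes came from E7.25. Among all genes measured, the share at least 2-fold higher was 1.25% in epiblast-like, 1.55% in streak and nascent mesoderm-like, 2.23% in paraxial and lateral mesoderm-like and 2.20% in extraembryonic mesoderm-like cells. It was 3.01% in definitive endoderm and gut-like, 1.44% in visceral endoderm-like and 2.65% in trophoblast-like cells. In the smaller classes it was 6.45% in blood and endothelium-like and 9.30% in node and notochord-like cells.

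**Figure D3:**
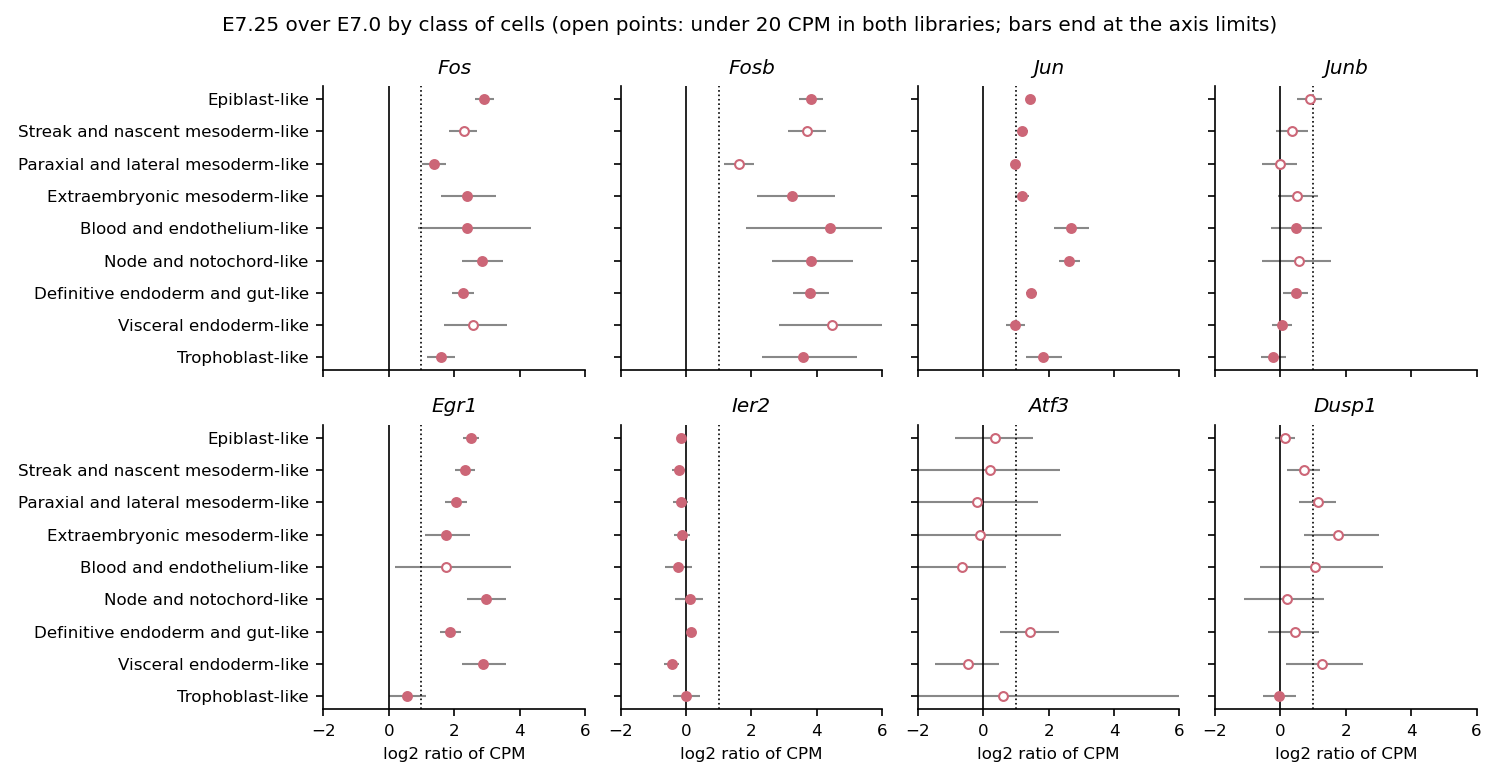
Log2 ratio of CPM, E7.25 over E7.0 (horizontal axes), of the 8 immediate early genes in 9 classes of cells (rows), with exact 95% intervals; filled points reach 20 CPM in 1 of the 2 libraries, the solid line is no difference and the dotted line 2-fold. All points of Fos, Fosb, Jun and Egr1 lie right of the solid line, those of Ier2 lie on or near it, and Atf3 had 0 UMIs at E7.25 in node and notochord-like cells and no point there.

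Classes shared the direction but not the size. In epiblast-like cells, the pluripotent layer from which the embryo forms, Fos stood at 38.0 CPM at E7.25, against 5.00 CPM at E7.0, a log2 ratio of 2.93 (2.65 to 3.21). In paraxial and lateral mesoderm-like cells it stood at 24.4 CPM at E7.25, against 9.33 CPM at E7.0, a log2 ratio of 1.38 (1.002 to 1.76). These intervals do not overlap, so the ratio was larger in epiblast-like cells than in this mesoderm by more than counting error. Fosb followed the same split, with log2 ratios of 3.81 (3.45 to 4.19) in epiblast-like and 1.62 (1.15 to 2.08) in paraxial and lateral mesoderm-like cells. The mesoderm class started from the highest E7.0 level of Fosb, 5.86 CPM. Both classes differ in their clusters between libraries, the epiblast-like class more so. The main epiblast-like cluster of E7.25 held 1448 cells of that library and 2 of E7.0, and that of E7.0 held 1450 of its own and 1 of E7.25. A cluster of the mesoderm class held 403 cells of E7.25 and 308 of E7.0. The part of this make-up in the ratios was not tested.

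Streak and nascent mesoderm-like cells, which leave the epiblast through the streak, had 36.9 CPM of Egr1 at E7.25, against 7.34 CPM at E7.0. Their Fos ratio, 2.29 (1.85 to 2.71), lay between those of epiblast-like and of paraxial and lateral mesoderm-like cells. Extraembryonic mesoderm-like cells had a Fos ratio of 2.38 (1.61 to 3.27) from 14 UMIs at E7.0.

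Visceral endoderm-like cells, the absorptive outer layer of the conceptus, carried the lowest levels of Fos, Fosb and Jun at E7.25. There Fos stood at 9.20 CPM at E7.25, against 1.54 CPM at E7.0, and Jun at 39.8 CPM at E7.25, against 20.2 CPM at E7.0. Even so their Egr1 ratio, 2.88 (2.23 to 3.60), was the largest of the 7 classes, from 20.7 CPM at E7.25, against 2.81 CPM at E7.0. Their Fosb ratio, 4.46, was also the largest of the 7, from 8.42 CPM at E7.25, against 0.384 CPM at E7.0. Both levels were under 20 CPM, so Fosb was not measured in this class. The E7.0 level rests on few UMIs in 681 cells, and so does the rank of this ratio. Their Ier2 stood at 38.0 CPM at E7.25, against 51.4 CPM at E7.0, a log2 ratio of -0.44 (-0.66 to -0.22). Their summed immediate early level was 1.40-fold higher, the smallest of the 7 classes. These cells also had the highest median share of mitochondrial UMIs at E7.25, 5.39%.

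Trophoblast-like cells had high levels of Fos and Fosb but a small Egr1 ratio. They had the highest Fos level of the 8 classes of at least 100 cells at E7.25, 97.4 CPM, against 32.4 CPM at E7.0, and the highest Fosb level, 36.7 CPM, against 3.06 CPM at E7.0. Egr1 stood at 33.3 CPM at E7.25, against 22.6 CPM at E7.0. Its log2 ratio, 0.56 (0.01 to 1.14), was the smallest of any class, and that of Fos was 1.59. Junb and Dusp1 were highest in this class among those of at least 100 cells, in both libraries, and did not differ in step with Fos: Junb stood at 47.8 CPM at E7.25, against 55.6 CPM at E7.0, and Dusp1 at 31.7 CPM at E7.25, against 32.4 CPM at E7.0.

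At E7.0 Jun was highest in mesoderm. It stood at 119 CPM in paraxial and lateral mesoderm-like cells and 76.9 CPM in extraembryonic mesoderm-like cells, against 20.2 to 53.8 CPM in the other named classes of at least 100 cells. At E7.25 the highest levels were 274 CPM in blood and endothelium-like cells, 284 CPM in the 85 node and notochord-like cells and 235 CPM in paraxial and lateral mesoderm-like cells. The 85 node and notochord-like cells, a class of ciliated midline cells, also had 103 CPM of Egr1 and 90.7 CPM of Fos at E7.25, against 13.1 and 12.5 CPM at E7.0. Blood and endothelium-like cells had 26.6 CPM of Fosb at E7.25 from 33 UMIs, against 1 UMI at E7.0.

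Among the rarer members, Hspa1a had the higher level at E7.25 in 6 of the 7 classes, in 5 of them with intervals above 0, and 67 UMIs at E7.25 and 23 at E7.0 in epiblast-like cells. The exception was streak and nascent mesoderm-like cells, with 2 UMIs in 505 cells at E7.25 and 20 in 2283 cells at E7.0. Its log2 ratio there was -0.41, with an interval that did not lie below 0. The highest E7.25 level of Hspa1a was 8.94 CPM in trophoblast-like cells. Hspa1b had log2 ratios above 0 in 5 of the 7 classes, in 2 of them with intervals above 0. Its lowest was -0.74 in definitive endoderm and gut-like cells. Summed over both heat shock genes, the log2 ratio was above 0 in 7 of 7 classes, lowest in streak and nascent mesoderm-like cells at 0.91. The interval of the sum lay above 0 in 5 of the 7, and the sum reached 20 CPM in none.

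Junb had log2 ratios above 0 in 5 of the 7 classes. The interval lay above 0 in 2 of them, epiblast-like (0.89, 0.50 to 1.28) and definitive endoderm and gut-like cells (0.48, 0.09 to 0.86), and reached 2-fold in none of the 3 where it was measured. Trophoblast-like cells, where Junb was highest, numbered 314 of 5194 cells at E7.25, against 110 of 7941 at E7.0, and their part in the whole-library ratio of 0.70 was not tested. Dusp1 had intervals above 0 in 4 of the 7 classes. In extraembryonic mesoderm-like cells it stood at 10.2 CPM at E7.25, against 3.03 CPM at E7.0 from 8 UMIs, while in epiblast-like cells the levels were 10.2 CPM at E7.25, against 9.21 CPM at E7.0. Outside trophoblast-like cells Dusp1 was under 20 CPM in every class. Atf3 was scattered over few UMIs, with its highest E7.25 level, 8.88 CPM from 11 UMIs, in blood and endothelium-like cells, against 13.9 CPM from 11 UMIs at E7.0. Ier2 ranged from -0.44 in visceral endoderm-like to 0.16 in definitive endoderm and gut-like cells and reached 2-fold in none of the 9 classes.

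**Figure D4:**
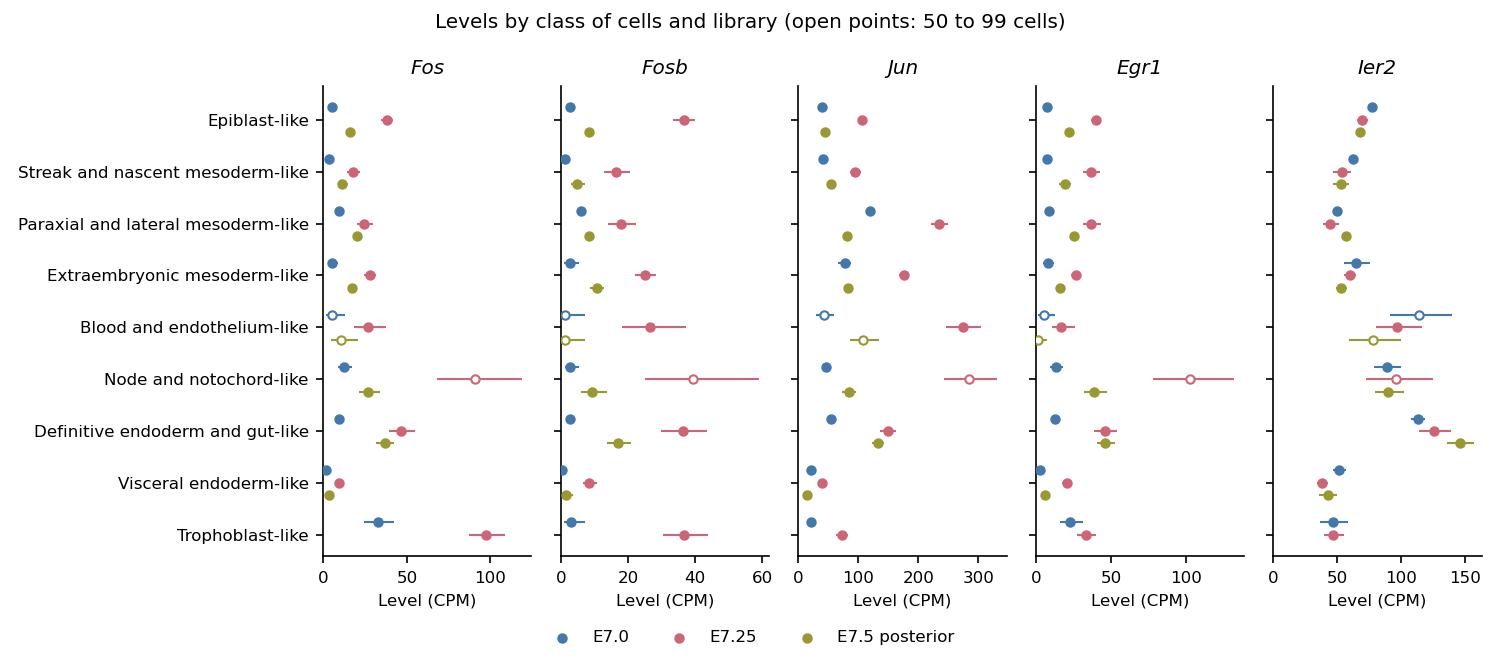
Level in CPM (horizontal axes, from 0) of Fos, Fosb, Jun, Egr1 and Ier2 in each class of cells (rows) and library (colours), with exact 95% Poisson intervals; open points hold 50 to 99 cells and classes under 50 cells are not drawn. In definitive endoderm and gut-like cells the E7.5 posterior points of Fos, Jun and Egr1 lie near those of E7.25, while in epiblast-like cells they lie between the other libraries or near E7.0.

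At E7.5 posterior the levels were lower than at E7.25, but not for all members and not in all classes. In whole libraries, 1 of the 5 measured members, Fosb, was at least 2-fold lower, against 3.29% of 5625 genes measured. Fosb was admitted through E7.25, where it is high, so nothing is read from that count. Fosb stood at 9.09 CPM at E7.5 posterior, against 26.1 CPM at E7.25, a log2 ratio of -1.52 (-1.65 to -1.39). The log2 ratios of Jun, Fos and Egr1 were -0.98, -0.85 and -0.54, and that of Ier2 was 0.12, around a median of -0.09 for all genes. With at most 5% mitochondrial UMIs, the count of members at least 2-fold lower was 3. Against E7.0, which shares neither region nor stage with it, the E7.5 posterior library had 1 of 3 measured members at least 2-fold higher, against 0.568% of 5283 genes: Egr1, at 23.3 CPM at E7.5 posterior and 8.26 CPM at E7.0, likewise admitted through the library where it is high. The 3 comparisons share libraries, so their ratios are not independent.

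How far the levels lay below those at E7.25 differed by class. In 6 classes with at least 100 cells in both the E7.5 posterior and E7.25 libraries, Jun was at least 2-fold lower in the E7.5 posterior library in 4 of 6. Among all genes measured, 0.905% were at least 2-fold lower in epiblast-like, 1.34% in streak and nascent mesoderm-like, 1.50% in paraxial and lateral mesoderm-like, 1.17% in extraembryonic mesoderm-like, 1.01% in definitive endoderm and gut-like and 0.920% in visceral endoderm-like cells. In paraxial and lateral mesoderm-like cells Jun stood at 81.1 CPM at E7.5 posterior, against 235 CPM at E7.25, below its 119 CPM at E7.0. In the same cells Fos stood at 20.2 CPM at E7.5 posterior, against 24.4 CPM at E7.25, a log2 ratio of -0.27 (-0.58 to 0.06).

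Fosb was lower at E7.5 posterior in each of these 6 classes, with intervals below 0 in all 6. In epiblast-like cells it stood at 8.49 CPM in that library, against 36.6 CPM at E7.25, a log2 ratio of -2.11 (-2.33 to -1.89). Visceral endoderm-like cells had 1.48 CPM of Fosb and 5.94 CPM of Egr1 at E7.5 posterior, against 8.42 and 20.7 CPM at E7.25. Their Egr1 ratio, -1.80 (-2.55 to -1.13), was the only one of that gene past 2-fold. Extraembryonic mesoderm-like cells had 16.9 CPM of Fos at E7.5 posterior, against 27.7 CPM at E7.25, and streak and nascent mesoderm-like cells 11.3 CPM, against 17.5 CPM. Both levels stayed above those of the same classes at E7.0, 5.30 and 3.59 CPM.

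Definitive endoderm and gut-like cells kept high levels. Their Fos stood at 36.6 CPM at E7.5 posterior, against 46.5 CPM at E7.25, and had been 9.59 CPM at E7.0. Its log2 ratio over E7.25, -0.34, had an interval below 0, where paraxial and lateral mesoderm-like cells had -0.27. Fosb in definitive endoderm and gut-like cells was at least 2-fold lower, at 17.1 CPM at E7.5 posterior, against 36.3 CPM at E7.25. Their Egr1 stood at 46.3 CPM at E7.5 posterior, against 46.2 CPM at E7.25, a log2 ratio of 0.00 (-0.30 to 0.31). Their Jun stood at 133 CPM at E7.5 posterior, against 148 CPM at E7.25, a ratio of -0.16 (-0.33 to 0.01), where epiblast-like cells had -1.26 (-1.36 to -1.15). The summed immediate early level was 410 CPM at E7.5 posterior, against 439 CPM at E7.25, in the endoderm class. In epiblast-like cells it was 175 CPM at E7.5 posterior, against 310 CPM at E7.25. In the endoderm class Ier2, at 146 CPM at E7.5 posterior, was the highest of any class in that library. The median share of mitochondrial UMIs in the endoderm class was 4.47% at E7.5 posterior, against 3.03% at E7.25, and its part in the levels was not tested.

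UMIs of Fos, Fosb, Jun and Egr1 were spread over more cells at E7.25 than in the other libraries. Each cell was thinned to 5000 UMIs, which left out 614, 509 and 774 shallower cells at E7.0, E7.25 and posterior E7.5. No UMI of Fos, Fosb, Jun or Egr1 was found in 75.5%, 47.6% and 66.3% of cells, and 5 or more in 0.478%, 4.53% and 1.32%. With the 10% of cells that held most of them set aside, the mean over the remaining cells was still 0.161, 0.735 and 0.299 UMIs of these 4 genes at E7.0, E7.25 and posterior E7.5. At least 1 UMI of Fos was found in 2.73%, 12.7% and 7.59% of thinned cells, and in 5.97%, 19.4% and 12.7% of cells without thinning. In visceral endoderm-like cells, the class with the lowest shares of Fos, these were 0.371%, 2.89% and 1.71% after thinning, with median depths of 9923, 8144.5 and 7587 UMIs before it. By class, the share of thinned cells with no UMI of the 4 genes was lower at E7.25 than at E7.0 in all 9 classes. It was 44.0% at E7.25, against 79.0% at E7.0, in epiblast-like cells, and 35.1%, against 57.7%, in paraxial and lateral mesoderm-like cells. In visceral endoderm-like cells it was 74.2% at E7.25, against 89.6% at E7.0, the highest share of the 9 classes in both libraries. Cells with 5 or more UMIs made up 10.2% of definitive endoderm and gut-like cells at E7.25, against 0.882% at E7.0, and 2.80% of epiblast-like cells, against 0.223%. A cell without a UMI may still hold the transcript, and free RNA may give a UMI to a cell that lacks it. Barcodes left out for under 1000 genes carried 121, 358 and 297 CPM of the 8 immediate early genes at E7.0, E7.25 and posterior E7.5, and the part of free RNA in these shares was not tested.

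**Figure D5:**
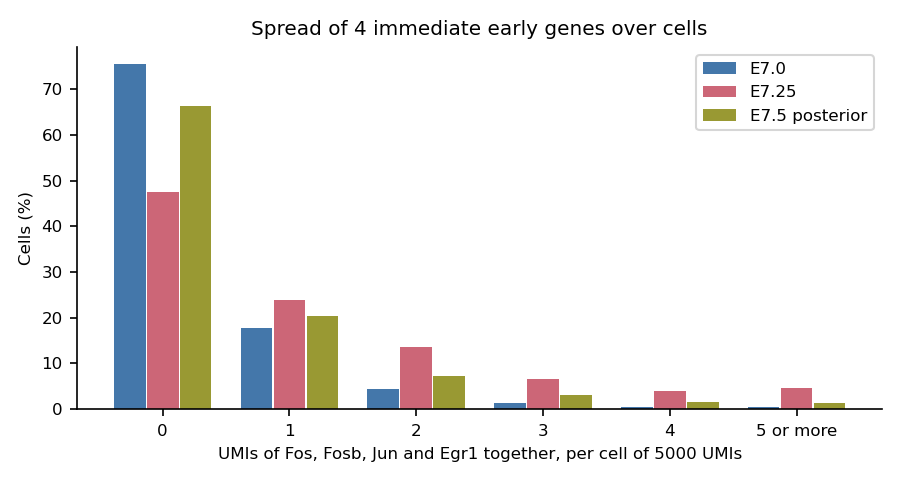
Share of cells (vertical axis, %) by the summed UMIs of Fos, Fosb, Jun and Egr1 (horizontal axis) after thinning each cell to 5000 UMIs, for 3 libraries. E7.25 has 47.6% of cells at 0, the lowest bar there, and is the highest bar in every group from 1 UMI up.

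Fos, Fosb and Egr1 were found together in cells more often than their shares and classes gave. At E7.25, 138 thinned cells held both Fos and Fosb, where 75.1 were computed from the shares within each class, a ratio of 1.84. For Fos and Egr1 the ratio was 1.70, from 156 cells. At E7.0 the ratio for Fos and Fosb was 6.96, from 18 cells and 2.58 computed, and at E7.5 posterior it was 3.105, from 68 cells. The 7 pairs with Ier2 had ratios from 0.860 to 1.65 over the 3 libraries, the highest from 14 cells with Ier2 and Atf3 at E7.25, and Fos and Jun had 1.27 at E7.25. Cells of a library share their embryos and handling, so these ratios describe the libraries only.

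Of 47 further immediate early genes in the files, 9 were measured E7.25 over E7.0. Of these, 1 was at least 2-fold higher, against 2.78% of all genes measured. It was Rhob, which encodes a small GTPase, at 20.5 CPM at E7.25, against 8.85 CPM at E7.0. Rhob was admitted through E7.25, where it is high, so nothing is read from that count. The 9 genes had a median log2 ratio of -0.04, against 0.12 for all genes. Class medians ran from -0.11 in trophoblast-like to 0.44 in node and notochord-like cells. Klf6 had a ratio of 0.88, Btg1 of 0.35, Jund of -0.31 and Ier5 of -0.39. Among 25 further chaperone and heat shock genes, 20 were measured, 2 were at least 2-fold lower, and the median was 0.14, where 1.52% of all genes measured were at least 2-fold lower. The 2 were Ubb, at 301 CPM at E7.25, against 830 CPM at E7.0, and the HSP90 activator Ahsa1, at 73.8 CPM at E7.25, against 179 CPM at E7.0. Both had log2 ratios above 0 in 0 of 9 classes. Hspb1, a small heat shock protein gene, had 0.67 and Cacybp -0.53.

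Of 11 targets of FGF and ERK signalling, 8 were measured, and their median log2 ratio was -0.31, against 0.12 for all genes. None was at least 2-fold different in whole libraries, where 2.78% of all genes measured were higher and 1.52% lower. With so few genes, nothing is read from that count. Within classes, from 3 to 10 measured genes each, the median was above 0 in 6 of 9. That of all genes was above 0 in each of the 9, from 0.05 to 0.16. In definitive endoderm and gut-like cells the targets had 0.11, against 0.14 for all genes. The median of the targets was 0.42 in visceral endoderm-like, 0.35 in paraxial and lateral mesoderm-like and 0.19 in streak and nascent mesoderm-like cells. It was -0.30 in epiblast-like and -0.42 in trophoblast-like cells. In whole libraries Spry4 and Dusp6, feedback inhibitors of the pathway, had log2 ratios of -0.93 and -0.68, Etv1 had -0.87, Il17rd -0.61 and Spred1 0.63. Of 15 genes of the integrated stress and unfolded protein responses, 7 were measured, and the median was 0.28, against 0.12 for all genes. None was at least 2-fold different in whole libraries, beside the same shares of all genes, and nothing is read from that count either. Calr, an endoplasmic reticulum chaperone gene, had 0.58, Ddit4 0.48, Asns 0.35, Pdia4 -0.32 and Xbp1 -0.49. By class, Ddit4 was above 0 in the 5 where it was measured and at least 2-fold higher in 3 of them. In node and notochord-like cells 1 gene of the list was at least 2-fold lower. Nothing is read from these counts.

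The genes whose levels followed the 8 immediate early genes most closely across 23 groups of class and library were Pdlim7 (Pearson r = 0.90 with the mean of the 8, of 7510 genes compared), Phldb1, Ccn1, Emc10, Parva, Pea15a, Lgals1 and Mier2 (0.84). Ccn1, itself an immediate early gene for a matrix protein, stood at 4.80, 18.6 and 10.6 CPM at E7.0, E7.25 and posterior E7.5, and Lgals1, a galectin gene, at 35.7, 90.3 and 52.5 CPM. Among the members, Fos had r = 0.93, Fosb 0.90, Egr1 0.84 and Jun 0.74, while Ier2 had 0.41, each with a mean that includes the gene itself, unlike the values of the other genes. Groups of the same library share its depth and handling, and these values carry no test.

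Cell quality was set beside the levels. The immediate early sum differed little with depth, but single members differed more. At E7.25 the sum was 318 CPM in cells under 5000 UMIs and 298 CPM in cells over 15000. At E7.0 it was 146 and 155 CPM. Between the same depth bins at E7.0, Jun was lower in the shallow cells, at 28.3 against 48.5 CPM. Ier2 was higher in them, at 83.0 against 72.8 CPM. At E7.25 Jun was higher in the shallow cells, at 136 against 115 CPM. At E7.5 posterior the sum was 139 CPM in cells with under 2% mitochondrial UMIs and 242 CPM in those with over 5%. At E7.25 it was 313 and 147 CPM in these bins, the upper of which lies where visceral endoderm-like cells have their median. In epiblast-like cells with 2 to 3% mitochondrial UMIs, the sum was 302 CPM at E7.25, against 145 CPM at E7.0, and 156 CPM at E7.5 posterior. The part of cell quality in the differences between stages was not tested.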

How the data were processed

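Droplet 3' RNA libraries of single cells were analysed from 1 library each of E7.0, E7.25 and posterior E7.5. The deposited values are raw counts of UMIs per gene and barcode, made by the authors with Cell Ranger 6.0.1, per the file headers. The genome build is not given in the sources used here. Cells had at least 1000 detected genes and at most 10% mitochondrial UMIs.

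Counts were summed over the cells of a library or class and divided by their total UMIs. Ratios carry conditional binomial, levels exact Poisson and shares exact Clopper-Pearson intervals at 95%, all for counting error only, since each group is 1 library. The steps were tested on simulated data. Genes reaching 20 CPM in 1 of the 2 libraries were measured, and those at least 2-fold apart were counted. Cells were clustered with scanpy 1.11.5 and Leiden (leidenalg 0.10.2) on 2000 variable genes, 30 components and 15 neighbours at resolution 1, without the members and related genes. The 22 clusters were named from marker lists and joined into 9 classes, a step chosen after the clusters were seen, so names are likenesses; 2 clusters stayed unnamed. Doublets were kept, and the highest doublet scores were removed as an alternative. Named genes are the members, up to 5 genes per wider list with the largest ratios and the 8 genes most correlated with the members' mean log2 level, with 10 CPM added; 1 result of the chaperone list is not reported here. GENCODE M21 matched 32235 of 32285 gene IDs. The members and lists were chosen with earlier results of these data known. Alternatives included TMM scaling with edgeR 4.0.16 in R 4.3.3.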

Additional observations from a re-analysis of the deposited data

Results flagged for a closer look

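In definitive endoderm and gut-like cells, Jun had a log2 ratio of E7.5 posterior over E7.0 of 1.30, where visceral endoderm-like cells had -0.57, opposite signs in a pair of endodermal classes. Ier2 likewise had 0.37 in definitive endoderm and gut-like cells and -0.29 in extraembryonic mesoderm-like cells. Both were picked out because classes moved in opposite directions under the same contrast, and the differences were not tested.

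Barcodes left out for fewer than 1000 detected genes also carried immediate early transcripts, at a sum of 121 CPM at E7.0, 358 CPM at E7.25 and, in posterior E7.5 barcodes, 297 CPM. These barcodes belong to no comparison above. In the kept cells the sums were 159, 312 and 202 CPM.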

How the results depend on the processing

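No paired analysis was possible because each group is 1 library. The summed immediate early log2 ratio of E7.25 over E7.0, 0.98, was 0.78 with TMM scaling, 1.03 with at most 5% mitochondrial UMIs and 0.93 with classes weighted equally. That of E7.5 posterior over E7.25, -0.63, was -0.51, -0.74 and -0.58, and that of E7.5 posterior over E7.0, 0.35, was 0.27 with TMM and 0.29 with at most 5% mitochondrial UMIs. The heat shock ratio of E7.5 posterior over E7.25, -0.81, was -0.51 with classes weighted equally. TMM shifted all genes by -0.20, 0.12 and -0.08 in these 3 comparisons, in this order. Members 2-fold or more below E7.25 in the E7.5 posterior library numbered 1, and 2 with no minimum, by the mean over cells or after thinning, and 3 with at most 5% mitochondrial UMIs. Classes with a summed ratio of at least 2-fold numbered 2, but 4 with classes of at least 50 cells, chosen after seeing the data, and 0 with TMM. Over all alternatives, Fos was at least 2-fold higher at E7.25 than at E7.0 in 65 of 65 class values and Fosb in 64 of 64. Jun was at least 2-fold higher in 50 of 65 and Egr1 in 55 of 65, both above 0 in all 65, and Ier2 reached 2-fold in 0 of 65. Single libraries without embryo replicates, and few UMIs for Atf3 and the heat shock genes, limit all values. The causes of these shifts were not tested.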

Other observations

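Of the clusters left without a name, 1 had a summed immediate early level of 230 CPM at E7.5 posterior, against 585 CPM at E7.25. It held 548 cells at E7.5 posterior and only 56 at E7.25, under the 100 cells asked of a class. The other, with a median of 0.304% mitochondrial UMIs, had 93.8 CPM at E7.5 posterior, against 109 CPM at E7.0, and no UMI of Fosb in either library.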
